A study of Homo sapiens with 4 samples.

Results

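The genes described here code for the core proteins of the Wnt and Notch signalling pathways: Wnt ligands, Frizzled and LRP receptors, the Dishevelled, Axin, APC and beta-catenin proteins that relay the Wnt signal, the TCF factors, the TLE co-repressors, and the ligands, receptors, MAML co-activators and HES repressors of Notch. They were taken by gene symbol (families WNT, FZD, DVL, AXIN, LRP5 and LRP6, APC, CTNNB1, TCF7, LEF1, NOTCH, JAG, DLL, HES, HEY, MAML and TLE) wherever a symbol had an m6A peak in either of 2 deposited peak lists. This gave 45 genes of 8220 with a listed peak. The RNA came from CaSki cells, an established human line of cervical squamous carcinoma. Control cells were grown at 37 °C, and heated cells were brought to 42 °C for 60 min before RNA extraction. No other agent or genotype is named in the labels. Each condition had 1 library of RNA captured by a commercial kit against N6-methyladenosine (m6A, a methyl mark on adenosines inside mRNA) and 1 input library of uncaptured RNA. There were no replicates, so no difference between the lists has a test or an error over cultures.

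Wnt ligands bind Frizzled receptors together with LRP5 or LRP6, Dishevelled then blocks the complex of Axin, APC and kinases that destroys beta-catenin, and beta-catenin enters the nucleus and turns on genes bound by TCF factors. Notch works by contact between neighbouring cells: a Jagged or Delta ligand on one cell triggers cleavage of the Notch receptor on the next, and the freed receptor tail joins a DNA-bound factor and a MAML protein to switch on HES and HEY repressors. TLE proteins are co-repressors that both TCF and HES factors recruit. In squamous epithelium Notch is known for promoting differentiation, and Wnt signalling for maintaining proliferating cells.

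A peak is a stretch of RNA, given as hg19 coordinates, where captured fragments piled up above the background. Each carries the authors' fold enrichment (captured signal over the caller's background) and a score on a negative log10 scale of p, which starts at 50 and mostly stops at 3100. These are values of single peaks, so folds of the lists are set side by side below and are not read as a change. The control list held 14367 peaks in 7138 genes with a median fold of 43.3, and the heat list 15472 peaks in 7112 genes with a median fold of 31.6. False discovery rates listed by the caller were nowhere below 8.22% in the control list or 20.6% in the heat list, and reached 100% for 48.5% and 53.2% of the peaks. Of 14 epithelial marker genes 11 had a peak in either list. So had 1 of 6 fibroblast markers (COL1A1), 1 of 4 endothelial markers (CDH5) and 0 of 6 immune markers. Of the 11 epithelial genes 7 were in both lists. KRT5, KRT15, KRT17 and EPCAM were in heat only (36.4%, against 13.2% of all genes). KRT6A, KRT18 and KRT19 had no listed peak. Read depth is unknown. Input levels were not analysed, so methylation of a site and the amount of its RNA cannot be told apart.

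Most of these pathway genes carried m6A peaks in both conditions. Of the 45 genes, 39 were listed in both (86.7%, 95% Wilson interval 73.8 to 93.7%, which covers counting only), where the share over all genes was 73.4%. Another 5 genes, WNT5A, WNT11, FZD9, DLL4 and HES6, had a peak in the control list only (11.1%, against 13.5% of all genes). The only gene listed in heat alone was DVL2 (2.22%, against 13.2% of all genes). The control list held 110 peaks in 44 of the genes, on average 2.5 per gene (2.01 over all genes). The heat list held 117 peaks in 40 of them, on average 2.93 (2.18 over all genes). In fold the pathway peaks resembled the rest of their list: the median was 41.6 in control and 30.5 in heat, and 50 of 110 and 55 of 117 peaks lay above the median of their own list.

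Where the peaks lay was largely common to both conditions. In control, 87 peaks had a partner in heat and 23 did not (20.9%, against 28.3% of all control peaks). In heat, 87 had a partner in control and 30 did not (25.6%, against 33.3% of all heat peaks). In 63 cases the start and the end were the same in both lists, which is 57.3% of the control and 53.8% of the heat peaks (47.2% and 43.8% over all peaks). The peaks without a partner had the lower scores, with a median score of 155 against 559 for overlapping peaks in control, and 100.3 against 392 in heat. Over all peaks the same medians were 106 against 443 in control and 104 against 324 in heat. All 23 and all 30 had unlisted peak numbers beside them in the other list, so a peak that was not called cannot be told apart from one that was called and not listed.

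The shares of genes with equal, higher and lower peak numbers were close to those of all genes. Among the 39 genes in both lists 20 had equal numbers (51.3%, against 54.3% of all genes). In heat 10 had more peaks (25.6%, against 25.0% of all genes) and 9 had fewer (23.1%, against 20.6%). In 9 genes the heat list held at least 2 more peaks (23.1%, against 9.45% of all genes): NOTCH1, JAG1, JAG2, DLL1, TLE1, TLE3, DVL1, LRP5 and WNT4. In 3 genes it held at least 2 fewer (7.69%, against 4.68%): AXIN1, WNT10A and MAML1. Genes with many peaks have more room to differ. Among genes with 4 or more peaks over both lists, it was the same 9 and 3, now out of 23 of these genes. Over all genes it was 570 and 282 out of 2901 (19.6% and 9.72%). The heat-only peaks were mostly weak: with a score above 228, the median of both lists pooled, only 2 genes (TLE3 and DVL1) still had at least 2 more peaks in heat.

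**Figure D1:**
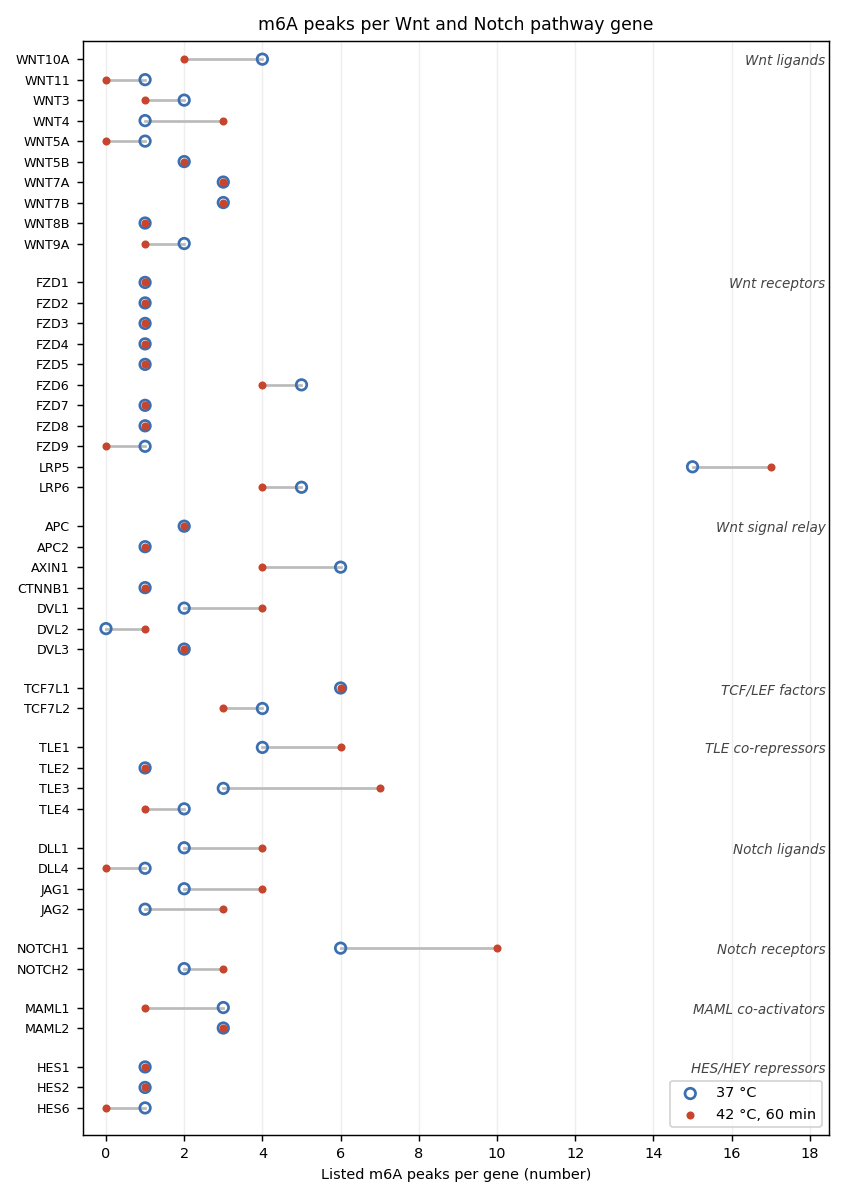
Number of m6A peaks per gene in the 37 °C list and in the 42 °C, 60 min list, for the 45 Wnt and Notch pathway genes in the order of their roles. LRP5 has the most (15 and 17), the Notch ligands JAG1, JAG2 and DLL1 and the receptors NOTCH1 and NOTCH2 all have more in the heat list, and 6 genes have peaks in 1 list only.

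The order of the Notch counts depended on the weak peaks, while the Wnt route had more control than heat peaks with each filter and without. In the full lists, the 30 genes of the Wnt route from ligand to TCF factor had 77 control and 72 heat peaks. Of the 26 listed in both conditions, 3 had more peaks in heat and 7 had fewer. The 11 genes of the Notch route had 23 control and 30 heat peaks. Of the 9 listed in both, 5 had more in heat and 1 had fewer. Among all 6030 genes listed in both, 25.0% had more and 20.6% had fewer. Above the pooled median score the order of the Notch route turned, to 18 control and 14 heat peaks, and the Wnt route had 49 and 39. Of the 8 Notch genes still in both lists, 2 had more peaks in heat and 2 had fewer. Of the 18 Wnt genes still in both, 1 had more and 4 had fewer. The whole lists turned too, from 14367 control and 15472 heat peaks to 7703 and 7216. Among all 3725 genes still in both, 567 had more in heat and 641 had fewer. With the pooled median fold as the limit the Notch route had 16 and 11 peaks, and the whole lists had 8488 and 6405. The 4 TLE genes, which serve both, had 10 and 15 in the full lists, 4 and 6 above that score and 5 and 3 above that fold. The difference between the pathways was not tested. Of the 13 heat-only peaks of the Notch route, 10 had a listed false discovery rate of 100%. The share among all heat-only peaks was not counted. The median score of the 13 was 104, the same as over all heat-only peaks (104).

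All 3 Notch ligands listed in both conditions had more peaks in heat in the full lists, but above the pooled median score only JAG2 did (1 and 2), with JAG1 at 1 and 1 and DLL1 at 1 and 0. JAG1, a ligand of the Jagged class, had 2 control and 4 heat peaks on chromosome 20. Its strongest region was the 3′-most in both lists, from 10619370 to 10620603 at a fold of 191 in control and from 10619190 to 10620603 at 118 in heat, both with a score of 3100. A second region, from 10622108 to 10622341, had folds of 35.2 and 21.6. The heat list added a peak at 10639116 to 10639370 (fold 22.5, score 75.3) and one at 10654098 to 10654694 (27.3, 184), both 5′ of the common ones. JAG2, the other Jagged ligand, showed the same layout on chromosome 14. Its 3′-most peak, from 105607318 to 105609507, had a fold of 161 in control and 47.1 in heat, both at a score of 3100. The heat list added 105616941 to 105617114 (10.1, 63.8) and 105634692 to 105635161 (44.1, 570), again toward the 5′ end.

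DLL1, a Delta-class ligand on chromosome 6, had 2 control and 4 heat peaks, all of low fold. The common regions began at 170592319 (folds 12.1 and 13.0) and at 170597501 (30.8 and 12.8). The heat-only peaks, from 170594007 to 170594223 (18.7, score 96.9) and from 170599174 to 170599697 (15.3, 127), lay between these regions and past the second. All 4 heat peaks of DLL1 had a false discovery rate of 100%. With peaks closer than 1 kb merged, DLL1 had 2 in each list. DLL4, the Delta-class ligand known for its part in vessel sprouting, had 1 control peak, from 41228437 to 41229128 on chromosome 15, at a fold of 126 and a score of 656. It was the second-highest scored of the 5 control-only genes after FZD9, and no heat peak was listed for it.

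NOTCH1, a Notch receptor coded on the minus strand of chromosome 9, had 6 control and 10 heat peaks, a difference in number matched only by TLE3. With peaks within 1 kb merged, NOTCH1 had 6 and 7. In control the highest fold was at the 3′-most peak, from 139388905 to 139392010 (94.5, score 3100). The heat peak over the same stretch, from 139388896, had a fold of 14.3 and a score of 250. The other common regions were 139393564 to 139393711 (42.2 in control, 12.4 in heat), 139395004 to 139395299 (54.2 and 10.1) and 139399762 to 139400333 (48.7 and 14.4). Every common region of NOTCH1 thus stood above or near the median fold of the control list and below that of the heat list.

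Of the NOTCH1 control peaks, 139396889 to 139397137 (34.1) and 139413895 to 139414017 (20.8) had no heat counterpart. The 6 heat-only peaks all lay 5′ of the common regions. The 5′-most of them, from 139418169 to 139418431, had the highest heat fold of the gene (56.3, score 212), and the next, from 139413043 to 139413276, had a fold of 32.7 and a score of 269. The remaining 4 had folds of 11.0, 15.4, 14.5 and 18.8 and scores of 59.0 to 104. These are small scores: 8 of the 10 heat peaks had a false discovery rate of 100% and 8 lay below the list's median fold. Above the pooled median score NOTCH1 had 4 control and 2 heat peaks, the reverse order, as the whole lists had (7703 and 7216).

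NOTCH2, the other receptor with a peak, kept its strong region. On chromosome 1 the 3′-most peak had a fold of 87.1 and a score of 2595 in control (120456364 to 120459317), and a fold of 109 and a score of 3163 in heat (from 120456379). A second region, from 120467928 to 120468433, had folds of 33.8 and 45.8. The 1 heat-only peak lay between them, from 120466260 to 120466607 (71.3, score 270.5). All 3 heat peaks of NOTCH2 were above the list's median fold, unlike most of those of NOTCH1. Parts of NOTCH2 are nearly identical to the NOTCH2NL genes, so reads from those parts are uncertain. Whether any listed peak lies in them was not checked.

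**Figure D2:**
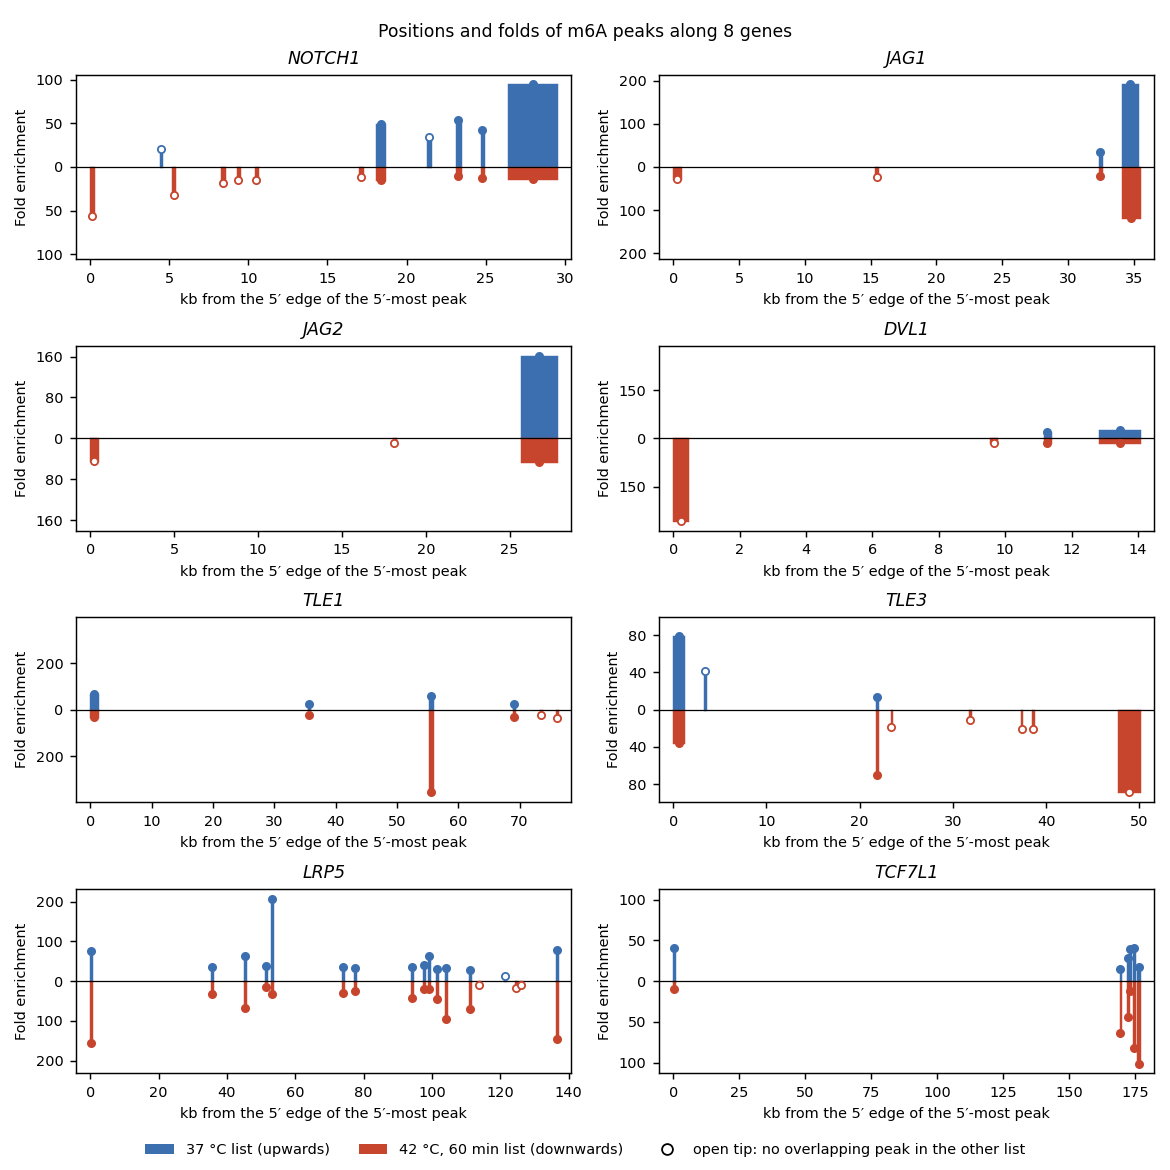
Peaks along 8 genes, by distance in kilobases from the 5′ edge of the 5′-most peak. Bars span each peak, their height is the authors' fold enrichment on a linear axis (37 °C upwards, 42 °C for 60 min downwards), and an open tip marks a peak with no overlap in the other list. In NOTCH1, JAG1, JAG2 and DVL1 the heat-only peaks lie 5′ of the common ones, in TLE1 and TLE3 3′ of them, and the 6 regions of TCF7L1 are common to both lists.

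MAML1, a co-activator that bridges the Notch tail to the transcription machinery, had 3 control peaks and 1 heat peak on chromosome 5. The common one, from 179192327 to 179193742, had a score of 3100 in both lists and folds of 195 and 62.1. The control-only peaks, from 179195851 to 179196090 (58.6, score 279.8) and from 179200896 to 179204287 (38.3, 304), lay 3′ of it. MAML1 had 3 and 1 also above the pooled median score and above the pooled median fold of 36.5. MAML2, its paralogue, had the same 3 regions in both lists, with control folds of 106, 204 and 57.8 and heat folds of 75.7, 40.6 and 67.0 along chromosome 11. All 6 of these peaks were above the median fold of their list.

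The HES genes code for helix-loop-helix repressors, some of which Notch switches on. HES1, the best known of them, had 1 peak of identical limits in both lists (193855472 to 193856401 on chromosome 3), at folds of 51.3 and 28.3. HES2 had 1 peak of 3920 bases, from 6475294 to 6479213 on chromosome 1, at a fold of 208 and a score of 3100 in control and 24.8 and 917 in heat. HES6, which is known to oppose HES1, had a control peak only, from 239146911 to 239148209 on chromosome 2 (36.5, score 166, false discovery rate 100%). No HEY gene had a listed peak.

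Among the Wnt ligands 8 of 10 were listed in both conditions, with 20 control and 16 heat peaks. WNT5B, a ligand of the non-canonical class, shared the top score of 3100 in both lists with WNT7B and had the higher fold. Its region from 1754960 to 1756378 on chromosome 12 had folds of 181 and 398, the latter the highest heat fold of the 45 genes. Its second region, from 1748850 to 1749142, had folds of 82.9 and 166. Its close relative WNT5A had a weak control peak only, from 55503975 to 55504578 on chromosome 3 (23.2, score 54.0). WNT11, also a non-canonical ligand, was listed in control only, from 75897642 to 75898283 on chromosome 11 (111, score 359).

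WNT4 and WNT10A differed most in number. WNT4, known for its roles in kidney and female reproductive tract development, had 1 control and 3 heat peaks on chromosome 1. The common region, from 22444736 to 22447010, had a fold of 156 and a score of 1031 in control, and 19.4 and 75.1 in heat. The 2 heat-only peaks, from 22456109 to 22456344 (23.3, score 63.7) and from 22469339 to 22469519 (29.1, 62.2), were near the lowest listed score. WNT10A, known from mutations that impair tooth and skin appendages, had 4 control and 2 heat peaks on chromosome 2. The common regions were 219754706 to 219755085 (212 in control, 28.8 in heat) and 219757496 to 219758651 (17.5 and 16.9). Its control-only peaks, from 219745255 to 219745830 (39.2, score 191) and from 219746883 to 219747145 (63.2, 192), lay 5′ of these.

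The remaining Wnt ligands had 1 to 3 peaks in each list. WNT7A had the same 3 regions in both, with the highest control fold of the Wnt ligands, 364, at 13896029 to 13896300 on chromosome 3, where the heat fold was 47.8. WNT7B had 3 in each, of which a region of 2968 bases had a score of 3100 and folds of 73.8 and 73.1. WNT3, a canonical ligand, had 2 control peaks and 1 heat peak, with folds of 247 and 77.1 at the common region (44845678 to 44846165 on chromosome 17). WNT9A had 2 and 1, and WNT8B 1 and 1, all with a false discovery rate of 100%.

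Most Frizzled genes carried a single long peak. Frizzleds are the membrane receptors to which Wnts bind. Of 9 Frizzled genes in the control list 8 had 1 peak, and in 7 of these it was at least 2 kb long (2243 to 3898 bases). In the heat list 7 of 8 had 1 peak, and 6 of these were at least 2 kb (2285 to 4099 bases). The median peak of all genes was 537 bases in control and 417 in heat. FZD4, the receptor for norrin as well as Wnts, had the highest control fold of the 45 genes, 519, from 86661270 to 86663512 on chromosome 11 with a score of 3100. In heat that region, from 86661228, had a fold of 97.8 and a score of 1324.

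The order among the Frizzled genes was not the same in the lists. FZD7 had folds of 132 and 82.8 with a score of 3100 in both. FZD1 had 121 and 32.2, and FZD8 had 58.6 and 18.3. FZD5 (77.0 and 101) and FZD2 (33.5 and 54.4) were the only ones with the higher figure in heat, where FZD2 reached a score of 3100. FZD3 was weak in both (26.7 and 21.1). FZD9 had a peak in control only, from 72848109 to 72850447 on chromosome 7 (104, score 821), the highest scored of the control-only genes. FZD6 departed from the single-peak form with 5 control and 4 heat peaks. Its region from 104341883 to 104342293 on chromosome 8 had a fold of 414 and a score of 3100 in control, and 38.9 and 1286 in heat.

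LRP5, a co-receptor for Wnt, had the most peaks of these genes, 15 in control and 17 in heat on chromosome 11. It ranked 6 among all genes of the control list by peak number and 8 in the heat list. Of its regions 13 had identical limits in both lists and 1 more overlapped. The peaks were short, 132 to 451 bases in control and 111 to 467 in heat. The highest control fold, 207, was at 68133039 to 68133170, where the heat fold was 32.9. The highest heat fold, 157, was at the 5′-most peak, 68080077 to 68080273, where the control fold was 74.9. The 3 heat-only peaks had low folds of 11.1, 17.0 and 9.19 and the control-only peak one of 12.8, all with a false discovery rate of 100%. LRP6, its paralogue, had 5 control and 4 heat peaks, of which 3 regions were common. Its highest control fold was 149, at 12333977 to 12334373 on chromosome 12, with 39.6 in heat.

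The proteins that relay the Wnt signal inside the cell had mostly modest folds: 11 of 14 control and 12 of 15 heat peaks lay below the median of their list. DVL1, a Dishevelled scaffold, held the highest heat fold among them. Its 2 common regions on chromosome 1, from 1270656 to 1271895 (26.3 and 14.1) and from 1273357 to 1273563 (20.3 and 14.1), were weak in fold in both lists. The heat list added a peak from 1274962 to 1275192 (15.5, score 259) and, at the 5′ end, one from 1284276 to 1284730 with a fold of 257 and a score of 1771. That was the highest scored of all 30 heat-only peaks. DVL1 had 2 and 4 peaks also above the pooled median score. DVL2 was listed in heat only, with a peak close to the lowest score (7137388 to 7137863 on chromosome 17, fold 16.5, score 51.9). DVL3 had the same 2 regions in both lists, at folds of 13.1 and 39.2 in control and 14.2 and 28.1 in heat.

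AXIN1, the scaffold of the destruction complex, had 6 control and 4 heat peaks on chromosome 16. Its region from 396148 to 397106 had a fold of 166 and a score of 3100 in control, and 35.1 and 1497 in heat. At 347722 to 348251 the folds were 46.4 and 39.4. The peaks from 359973 to 360069 (12.9) and from 364543 to 364683 (24.9) were in the control list only, both with a false discovery rate of 100%. CTNNB1, which codes for beta-catenin, had 1 peak in each list on chromosome 3, from 41280625 to 41281934 at a fold of 85.8 and a score of 1514 in control, and to 41281729 at 24.1 and 244 in heat. APC, the tumour suppressor of the destruction complex, had 2 weak peaks in each list with folds of 14.8 to 16.9 in control and 17.6 to 30.8 in heat. APC2 had 1 in each, the longest of the 45 genes (6399 and 6869 bases), at folds of 36.1 and 31.2.

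TCF7L1, a mostly repressive TCF factor, had the same 6 regions in both lists with identical limits on chromosome 2, yet their ranks differed. From 5′ to 3′ the control folds were 40.4, 15.1, 28.9, 39.1, 40.7 and 17.5, none above the list's median. In heat they were 9.23, 64.2, 43.8, 12.7, 82.3 and 101, with 4 above the median. The 3′-most region, from 85536152 to 85537511, went with a score of 238 in control and 1547 in heat, and the 5′-most, from 85360583 to 85361056, with 547 and 81.9. TCF7L2, the main TCF partner of beta-catenin in intestine, had 4 control and 3 heat peaks. Its 3′-most peak on chromosome 10, from 114925314, was the strongest in both lists (64.4 and 109). All 3 heat peaks of TCF7L2 were above the list's median fold, against 1 of 4 in control.

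The TLE genes had 7 heat-only peaks, as many as the Notch receptors and more than any other role. TLE1 had 4 control and 6 heat peaks on chromosome 9. Its region from 84248638 to 84249216 had a fold of 355 and a score of 2138 in heat, and 59.1 and 1042 in control. The region at its 5′ end, from 84303132 to 84304450, was highest in control (68.4, score 3100) and had 33.6 and 2226 in heat. The 2 heat-only peaks, from 84228292 to 84228437 (35.2, score 127) and from 84230897 to 84231049 (23.8, 82.5), lay 3′ of the common ones. TLE2 had 1 short weak peak in each list (16.2 and 24.7). TLE4 had 2 control peaks and 1 heat peak, with folds of 113 and 14.1 at the common region, from 82186773 to 82187750 in control.

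TLE3 had 3 control and 7 heat peaks on chromosome 15. The common regions were 70389114 to 70390256 (79.6 in control, 35.8 in heat) and 70368435 to 70368497 (13.4 and 70.7). The strongest heat peak was heat-only and the 3′-most, 2414 bases long from 70340130 to 70342543, with a fold of 88.7 and a score of 602. The other 4 heat-only peaks had folds of 10.7 to 21.0, at 70351749, 70352869, 70358353 and 70366842, and 3 of them had a false discovery rate of 100%. A control-only peak lay at 70386871 to 70386915 (41.8). Above the pooled median score TLE3 had 1 control and 4 heat peaks.

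Of 20 genes with at least 2 overlapping regions, 7 had their highest fold at the same one in both lists (35%, against 55.2% of 2290 genes). These were WNT5B, WNT7B, WNT10A, DVL3, TCF7L2, JAG1 and NOTCH2. The figure depends on how many regions a gene has. With 2 regions it was 6 of 10 genes (64.8% of all), and with 3 or more it was 1 of 10, TCF7L2 (43.6% of all). In 4 of the other 13 genes (DVL1, DLL1, NOTCH1 and LRP6) the heat folds of the overlapping regions that led in control and in heat lay within 10% of each other, so their order is close to a tie. In the remaining 9, such as FZD6, WNT7A, MAML2 and LRP5, the gap was wider, and there is no replicate to set it against. In AXIN1, also 1 of the 9, the gap was only just past this limit (heat folds of 35.1 and 39.4).

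Strand was known for 37 of the 45 genes, from RefSeq. In the control list the strongest peak was the 3′-most in 9 of 20 genes with several peaks (45%, against 52.7% of all such genes), and in heat in 11 of 18 (61.1%, against 45.7%). In 9 genes with both heat-only and overlapping peaks, 14 of 25 heat-only peaks lay 5′ of every overlapping one (56%, against 49.9% of all such peaks), 7 lay 3′ (28%, against 21.1%) and 4 between. In each of these 9 genes the heat-only peaks lay in 1 of these positions only. NOTCH1, JAG1, JAG2, DVL1 and WNT4 had them 5′, and TLE1 and TLE3 had them 3′. LRP5 had them between, as did NOTCH2 with its 1 heat-only peak. JAG2 and WNT4 had 1 overlapping peak each, so a position between was not possible there. DLL1, LRP6 and WNT7B also had both kinds of peak but no known strand, so they are not counted. The heat-only peaks of DLL1 lay in more than 1 position. How often all genes have their heat-only peaks in 1 position only was not tested.

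**Figure D3:**
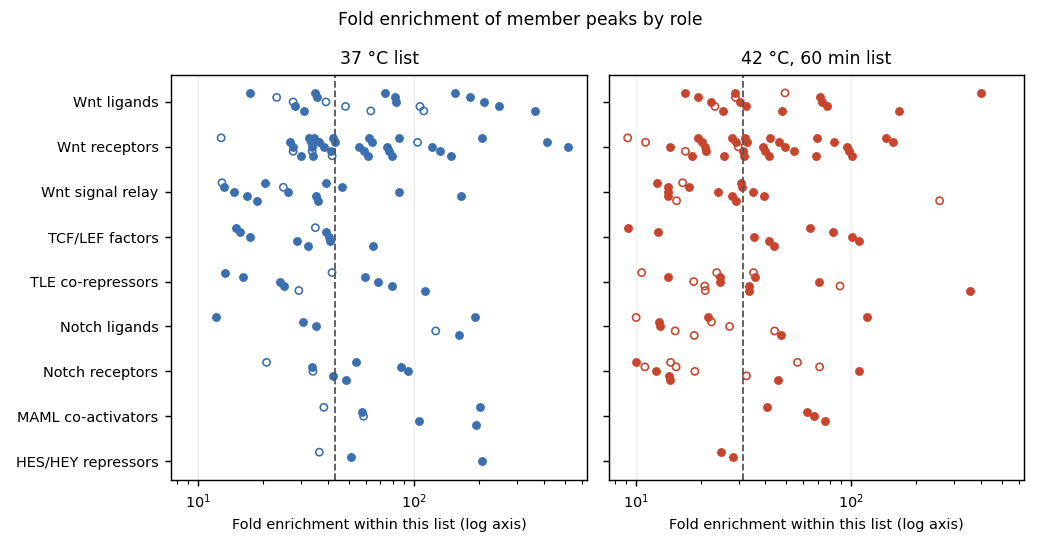
Fold enrichment of every peak of the 45 genes by role, on a log axis, for the 37 °C list and the 42 °C, 60 min list. Filled points overlap a peak of the other list, open points do not, and the dashed lines mark the median fold of all peaks of each list (43.3 and 31.6). The open heat points of the Notch ligands and receptors lie between 10.1 and 71.3, and the open heat point at 257 among the relay genes is DVL1.

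Of 58 other genes of the Wnt pathway 35 had a peak, 27 of them in both lists (77.1%, against 73.4% of all genes), 6 in control only (17.1%, against 13.5%) and 2 in heat only (5.71%, against 13.2%), with 74 control and 72 heat peaks. The 6 control-only genes were KREMEN2 and DKK1, which block LRP receptors, the kinase gene CSNK1G3, the receptor gene ROR1, the polarity gene PRICKLE1 and the nuclear cofactor gene PYGO1. KREMEN2 had the highest score of these (1025, fold 174), followed by DKK1 (670, fold 39.7). The heat-only genes were PORCN, an enzyme that adds a lipid to Wnt proteins, at a score of 64.4, and NKD1, a Dishevelled antagonist, at 61.2. Among the common genes GSK3B, the kinase that marks beta-catenin for destruction, had 1 control and 2 heat peaks, and its region from 119812194 to 119813264 on chromosome 3 had folds of 39.5 and 118. CSNK1G2 had 4 and 3 peaks, CTBP2 had 3 and 3, and CELSR3 had 2 and 2.

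Of 41 other Notch pathway genes 28 had a peak, 23 in both lists (82.1%, against 73.4% of all genes), 0 in control only (against 13.5%) and 5 in heat only (17.9%, against 13.2%), with 91 control and 99 heat peaks. Of the heat-only genes, MIB2, NEURL1 and NEURL1B code for ubiquitin ligases that drive ligand endocytosis, NCSTN for nicastrin of the gamma-secretase complex, and POGLUT1 for an enzyme that adds glucose to Notch. MIB2 had the highest score (505, fold 143), and the others had scores of 75.4 to 214. Among the common genes the co-repressor SPEN had 7 control and 5 heat peaks, and FBXW7, a ubiquitin ligase that turns over the Notch tail, had 3 and 3.

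A further 30 protein-coding genes that RefSeq lists in the same symbol families were not among the 45 genes. Peaks listed under an older symbol of these genes were not searched for. They included AXIN2 and LEF1, NOTCH3 and NOTCH4, TCF7, HEY1 and HEY2, FZD10, DLL3 and MAML3. Whether their RNA was present was not tested.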

How the data were processed

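The data are 2 peak lists, 1 per condition, from 4 libraries. The submitters' processing notes name cutadapt 1.9.3, STAR and the build hg19. The prefix MACS in the peak names points to that caller; its settings, like the version of STAR, were not given in the sources used here. Per the file headers, the deposited score is a multiple of the negative log10 of the p-value, the deposited fold is a ratio of captured signal to estimated background, and the deposited false discovery rate is a percent. 1 line of the heat list was not analysed here.

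Starts were converted to 1-based positions. Peaks of the lists were called overlapping from 1 shared base, without regard to strand. Symbols were matched to the rule and to RefSeq (GRCh38.p14), from which only names and strand were taken. No hg19 genome or annotation was used, so exon positions are not given. Intervals are Wilson intervals at 95% (statsmodels 0.14.6) and cover counting only. With 1 sample per group no test was run. The overlap step was tested on simulated data.

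The members and lists were chosen with earlier results of these data known. All members are named. Peak values are given for members of 1 list, for members whose number of peaks differed by at least 2 and for the highest scored member of each role, with further members for context. For the other pathway genes, single-list genes and up to 4 common genes are given, except some that are not reported here. Alternatives were filters on score, fold and false discovery rate, equal numbers of top peaks, a stricter overlap, and merging of peaks within 1 kb.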

Additional observations from a re-analysis of the deposited data

How the results depend on the processing

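No paired analysis was possible because each condition had 1 captured library and no result comes from a test. Filters on peak strength moved the counts most. With scores above the pooled median of 228, there were 71 control and 59 heat peaks, 13 heat peaks without overlap, 9 control-only and 0 heat-only genes, 4 genes with more peaks in heat and 2 with at least 2 more. With folds above the pooled median of 36.5, which keeps more of the control list, there were 63 and 44 peaks, 36 control and 17 heat peaks without overlap, 21 genes in both lists, 13 in control only and 2 in heat only, 4 with more peaks in heat and 1 with at least 2 more. With a false discovery rate under 100% there were 69 and 60 peaks, 15 heat peaks without overlap, 8 control-only genes, 5 with more peaks in heat and 2 with at least 2 more. With the top 7183 peaks of each list there were 68 and 59 peaks, 16 heat peaks without overlap, 9 control-only genes, 5 with more peaks in heat and 3 with at least 2 more. With the top 14367 peaks of each list, DVL2 dropped out, leaving 0 heat-only genes, and 6 genes had at least 2 more peaks. Merging within 1 kb left 7 such genes, and an overlap of at least 50% of both regions left 24 control and 31 heat peaks without a partner. The number of genes with at least 2 fewer peaks stayed at 2 or 3 under these settings. Over all genes in both lists, at least 2 more peaks in heat were found in 164 of 3725 with the score filter, beside 2 of 28 pathway genes. With the fold filter it was 106 of 3428, beside 1 of 21. Without a filter it was 570 of 6030, beside 9 of 39. Control-only genes outnumbered heat-only genes over all genes too, at 1323 and 749 with the score filter and 1974 and 797 with the fold filter. These counts were 1218 and 795 with the false discovery rate filter, and 1177 and 828 with the top 7183 peaks. Without a filter these were 1108 and 1082. Heat peaks without overlap over all genes were 2087 of 7216 with the score filter and 2368 of 6405 with the fold filter. They were 2185 of 7242 with the false discovery rate filter and 2221 of 7183 with the top 7183 peaks. Control peaks without overlap over all genes were 4446 of 8488 with the fold filter. The depth of the libraries is unknown, so what limits the weak peaks was not tested.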
